A study of Mus musculus with 6 samples.

Results

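ATF3 peaks at the AP-1 family genes were taken from the 6 peak lists of an ATF3 ChIP-seq experiment in mouse macrophages. A peak was a member when the annotation in the list named it for Fos, Fosb, Fosl1, Fosl2, Jun, Junb, Jund, Batf, Batf3 or Jdp2, that is, when the nearest start site was that of 1 of these 10 genes. This gave 37 of 16759 listed peaks, 24 of 11888 called by the standard method and 13 of 4871 after KOIN correction. They fell into 16 sites at 5 genes, with 5 sites at Fos, 4 at Jun, 3 at Batf, 2 at Fosb and 2 at Batf3. Fosl1, Fosl2, Junb, Jund and Jdp2 had 0 peaks in all 6 lists.

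The study asked how far the ChIP signal of Atf3-/- (KO) cells, used as a control, changes the peaks called in Atf3+/+ (WT) cells. Bone marrow-derived macrophages (BMDMs), which are primary macrophages grown from marrow with the growth factor M-CSF at 40 ng/ml, came from ATF3-deficient mice and from WT C57BL/6 mice aged 6 to 8 weeks. The KO and WT macrophages of the HDL + CpG condition received high-density lipoprotein (HDL) at 2 mg/ml for 6 h and then CpG DNA, a ligand of Toll-like receptor 9, at 100 nM for 4 h. Those of the HDL condition received the same HDL treatment alone, and the unstimulated ones medium alone. Each of the 6 groups is 1 library in which the authors pooled the 3 biological replicates that the labels name, so no spread between mice or cultures can be given and every interval below covers counting error only. KO libraries held 47504605 (HDL + CpG), 66061648 (HDL) and 75534584 (unstimulated) reads, against 49467421, 37930363 and 37137377 reads in the WT libraries of the same conditions. The lists hold no transcript or protein values, so neither the loss of ATF3 in KO cells nor the macrophage identity of the cells was checked by markers.

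AP-1 is a dimer of basic leucine zipper (bZIP) proteins of the FOS, JUN, BATF and JDP families, which grip the sequence TGAGTCA or its reverse complement TGACTCA. ATF3 belongs to the same superfamily, pairs with JUN proteins among others, and also recognizes the cAMP response element (CRE), TGACGTCA. Many of these genes are immediate early genes that macrophages switch on within minutes of a Toll-like receptor signal, and their promoters are known to be bound by bZIP dimers in turn.

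The sequences below show what lies under the peaks on which the results turn: the stretches just upstream of the Fos, Fosb and Jun start sites inside the promoter peaks, and the centres of the highest-scoring KOIN-corrected peaks of Fos, Batf and Batf3 with the neighbouring Fos peak. Coordinates are mm9 (NCBI build 37), promoter stretches are given on the strand of the gene and the others on the plus strand. Capitals mark an AP-1 or CRE sequence on either strand. They also mark 3 related sequences that were chosen after the promoters had been read: TGACATCA and, differing in length, TGCGTCA, as well as TGACGT, with which the CRE begins.
Fos promoter, distal stretch, chr12:86814530-86814569, plus strand: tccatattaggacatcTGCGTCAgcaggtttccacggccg
Fos promoter, proximal stretch, chr12:86814750-86814809, plus strand: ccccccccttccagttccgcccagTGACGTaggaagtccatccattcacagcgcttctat
Fosb promoter, chr7:19895395-19895494, minus strand: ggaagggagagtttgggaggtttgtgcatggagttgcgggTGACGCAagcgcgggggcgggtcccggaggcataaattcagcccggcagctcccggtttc
Jun promoter, chr4:94718914-94719023, minus strand: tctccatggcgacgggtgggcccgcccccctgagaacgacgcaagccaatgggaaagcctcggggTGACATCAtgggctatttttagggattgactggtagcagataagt
Fos downstream peak at 45.9 kb, chr12:86860664-86860784, plus strand: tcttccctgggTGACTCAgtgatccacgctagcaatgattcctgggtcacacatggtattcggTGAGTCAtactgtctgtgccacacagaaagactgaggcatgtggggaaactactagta
Fos downstream peak at 50.02 kb, chr12:86864825-86864975, plus strand: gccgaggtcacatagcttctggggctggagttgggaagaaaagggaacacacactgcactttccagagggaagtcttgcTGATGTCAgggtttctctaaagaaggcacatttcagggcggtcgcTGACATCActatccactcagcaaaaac
Batf intron peak at 18.9 kb, chr12:87046515-87046615, plus strand: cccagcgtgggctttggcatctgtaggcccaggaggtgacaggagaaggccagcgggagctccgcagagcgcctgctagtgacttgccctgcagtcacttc
Batf3 upstream peak at 12.6 kb, chr1:192909674-192909774, plus strand: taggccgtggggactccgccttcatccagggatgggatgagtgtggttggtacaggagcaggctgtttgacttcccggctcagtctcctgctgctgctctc

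Among these stretches the AP-1 sequence stood only at the Fos peak 45.9 kb downstream, where it occurred in both orientations. In the Fos promoter TGCGTCA lay 288 bp and TGACGT 61 bp upstream of the start site. In the Fosb promoter TGACGCA, the reverse complement of TGCGTCA, lay 54 bp upstream on the gene strand, and in the Jun promoter TGACATCA lay 38 bp upstream. The Fos peak 50.02 kb downstream held TGACATCA and its reverse complement. The Batf and Batf3 stretches held no match to the searched letters.

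The tag values of the KO and WT libraries were compared peak by peak. Tags are reads in the peak scaled by the authors to a library of 10000000 reads, and the KO/WT ratio is given with an exact 95% interval from the recovered reads. A standard peak was counted as retained when a KOIN-corrected peak of the same condition overlapped it. KOIN peaks were called by MACS with the KO library as control and passed a filter on the tags, so that a retained peak has a KO/WT ratio of at most 0.5 by construction.

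KO tags were below WT tags at 7 of 8 standard peaks with HDL + CpG (all peaks 75.3%), at 10 of 10 with HDL (all peaks 93.9%) and at 6 of 6 in unstimulated cells (all peaks 89%). The interval of the ratio lay below 1 at 7 of 8 peaks with HDL + CpG (all peaks 44.2%), at 9 of 10 with HDL (all peaks 79.7%) and at 3 of 6 in unstimulated cells (all peaks 59.1%). Regions entered the standard lists through high WT signal, and KO tags played no part in that choice. The choice itself favours ratios below 1, for the members and for all peaks alike, and the intervals do not allow for it. Neither count by itself therefore tests whether the signal depends on ATF3. With HDL + CpG, 5 of 8 standard peaks were retained (62.5%, Wilson interval 30.6 to 86.3%), against 29.7% of all 3790 standard peaks. With HDL, 4 of 10 were retained (40%, 16.8 to 68.7%), against 54.9% of all 5319. In unstimulated cells 1 of 6 was retained (16.7%, 3.01 to 56.4%), against 20.7% of all 2779. The share over all peaks lay inside the members' interval with HDL and in unstimulated cells, and just under its lower end with HDL + CpG. With a score of at least 60 the HDL + CpG share was 33.3%, from 3 peaks. With HDL + CpG a repeat lay at the centre of 202 of all 1127 retained peaks (17.9%) and of 1696 of all 2663 removed ones (63.7%). Among the members it did so at 0 of 5 and 1 of 3. Off repeats the members' share was 71.4%, from 7 peaks. The like share over all peaks was not computed, but by these counts it is above 29.7%. The 71.4% should therefore not be set against 29.7%. Whether repeats bear on the gap to all peaks was not tested. Several of these peaks come from 1 gene, so the members are not independent draws.

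The count by tags alone gave a similar order. A KO/WT ratio of 0.5 or less was found at 5 of 8 standard peaks with HDL + CpG (all peaks 34.6%), at 6 of 10 with HDL (all peaks 66.6%) and at 1 of 6 in unstimulated cells (all peaks 31.3%). The members' median ratio was 0.358 with HDL + CpG, where all standard peaks had 0.705. It was 0.471 with HDL, beside 0.416 for all peaks, and 0.627 without stimulation, beside 0.602. The members thus sat lower than the median peak with HDL + CpG only, and this difference was not tested. In the plot of the distribution of ratios the peaks are set against all others.

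**Figure D1:**
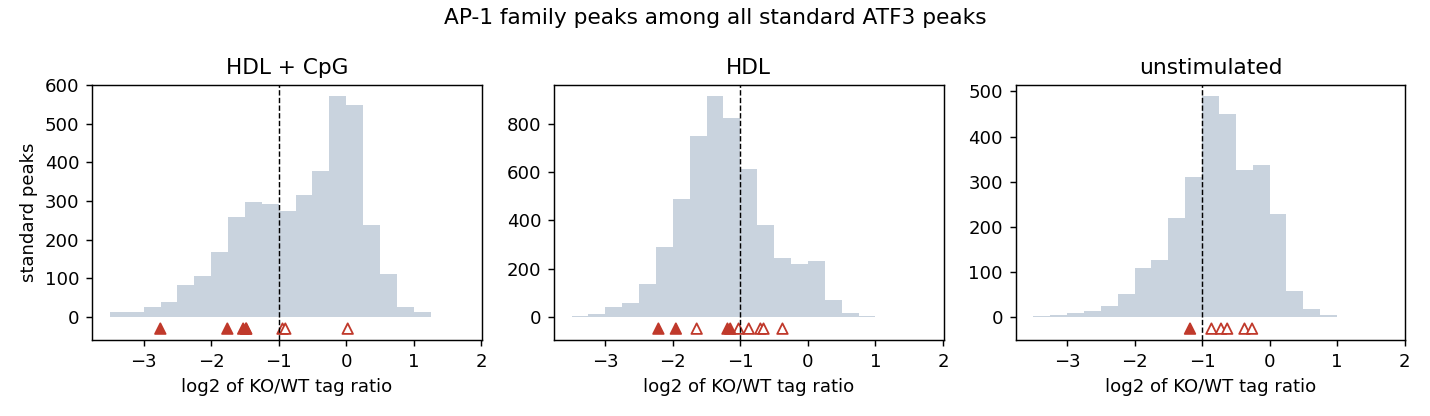
Histograms of the log2 KO/WT tag ratio over all standard ATF3 peaks in HDL + CpG, HDL and unstimulated macrophages (y axis, number of peaks), with the AP-1 family peaks as triangles under the axis, filled where a KOIN-corrected peak overlapped. The dashed line is a ratio of 0.5, 12, 15 and 2 peaks outside the range are not drawn, and 5 of 8 members lie left of the line with HDL + CpG, 6 of 10 with HDL and 1 of 6 in unstimulated cells.

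Fos, the founding immediate early gene of the family, carried 5 of the 16 sites, and all its listed peaks were from stimulated cells. Its promoter peak (chr12:86814281-86815143, centred 139 bp upstream of the start site) had 3.58 tags in the KO library and 12.1 in the WT library with HDL + CpG, a KO/WT ratio of 0.295 (0.161 to 0.512), and was retained. With HDL the overlapping peak had 5.75 KO and 10.6 WT tags, a ratio of 0.545 (0.341 to 0.872), and was removed. The WT tags per kb were close in the HDL + CpG and HDL libraries, at 14.1 and 13.7, whereas the KO tags per kb were 4.15 and 7.45. The KO/WT ratio with HDL + CpG over that with HDL was 0.545 (0.252 to 1.14), so that the difference between the conditions was not larger than counting error allows.

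Of the 2 Fos sites downstream of the gene, the one 45.9 kb from the start site had 4.84 KO and 13.5 WT tags with HDL + CpG, a ratio of 0.357 (0.212 to 0.582), and was retained. With HDL it had 6.21 KO and 12.7 WT tags, a ratio of 0.491 (0.315 to 0.760), and was removed although its ratio was under 0.5. This is the site with the pair of AP-1 sequences, the nearer of which lay 4 bp from the peak centre with HDL + CpG. The site 50.02 kb downstream (chr12:86864417-86865333) was the only member site with a KOIN-corrected peak in 2 conditions. It had 2.72 KO and 10.6 WT tags with HDL, a ratio of 0.258 (0.139 to 0.461), and 3.58 KO and 11.1 WT tags with HDL + CpG, a ratio of 0.322 (0.175 to 0.563). In the HDL + CpG condition it was called only after KOIN correction, with no standard peak at the site.

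The remaining 2 Fos sites lie upstream, and 1 of them was called only by KOIN. The site 5.12 kb upstream was listed only after KOIN correction with HDL + CpG, with 1.68 KO and 6.87 WT tags and a ratio of 0.245 (0.0980 to 0.539). Its score was 40.66, rank 1164 of 1232. The site 18.4 kb upstream, which the annotation places on a CpG island, was listed only with HDL, with 9.39 KO and 15.3 WT tags and a ratio of 0.614 (0.422 to 0.894), and was removed.

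Fosb, which encodes a FOS protein that takes the place of FOS in AP-1 dimers, had the largest WT tag value among the member peaks. Its promoter peak (chr7:19894946-19896034, 96 bp upstream of the start site) had 5.0 KO and 23.2 WT tags with HDL, a ratio of 0.216 (0.140 to 0.325). It was retained and ranked 58 of 3044 KOIN-corrected HDL peaks by MACS score, which was 142.93. In unstimulated cells the promoter peak had 6.62 KO and 10.2 WT tags, a ratio of 0.647 (0.416 to 1.01), and was removed. It was not listed with HDL + CpG, where the nearest listed peak was named for another gene and lay 82.1 kb from the Fosb start site.

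The second Fosb site, 6.49 kb upstream of the start site (chr7:19901518-19902244), was listed only in unstimulated cells, with 3.57 KO and 8.08 WT tags. Its ratio of 0.442 (0.253 to 0.770) made it the only member peak that KOIN correction retained without stimulation. Its score after KOIN correction was 40.2, rank 583 of 595, so it stood near the threshold of the list.

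**Figure D2:**
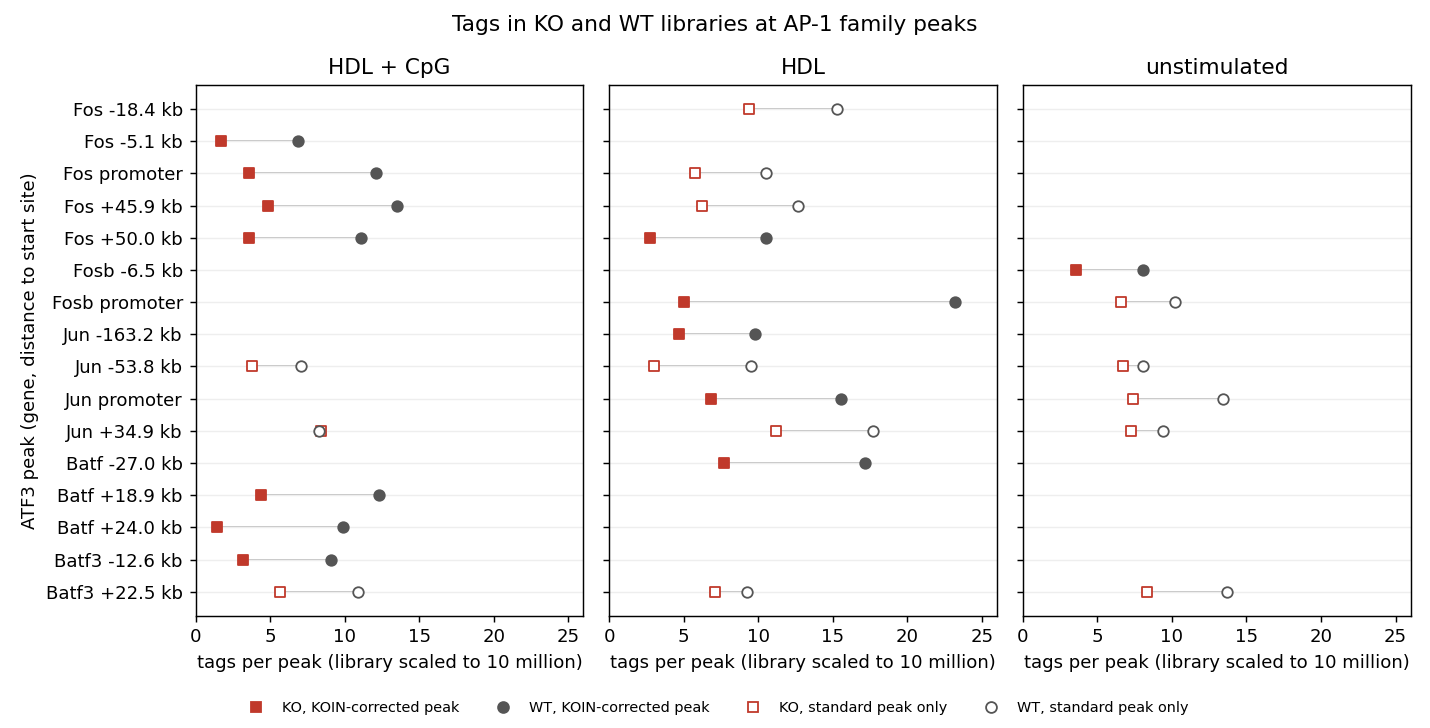
Tags in the KO (squares) and WT (circles) library at each of the 16 AP-1 family sites (rows, named by gene and distance to the start site) for HDL + CpG, HDL and unstimulated macrophages, with filled symbols where a KOIN-corrected peak was listed and open ones where only a standard peak was. The Fosb promoter with HDL, at 5.0 KO and 23.2 WT tags, has the widest gap, and the Jun site 34.9 kb downstream has 8.42 KO and 8.29 WT tags with HDL + CpG.

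Jun encodes the main partner of FOS proteins, and it had more standard peaks than any other member, with 8, of which 1 was retained. The retained peak was that of the promoter with HDL (chr4:94718530-94719477), which had 6.81 KO and 15.6 WT tags, a ratio of 0.438 (0.290 to 0.657). In unstimulated cells the promoter peak had 7.41 KO and 13.5 WT tags, a ratio of 0.551 (0.369 to 0.823), and was removed. The HDL ratio over the unstimulated one was 0.797 (0.445 to 1.42), so the change of call between these conditions went with a difference in ratio within counting error. With HDL + CpG no promoter peak was listed.

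The other Jun sites are distal, and 3 of the 3 had a repeat at the peak centre in at least 1 list. The site 34.9 kb downstream of the start site, on an ORR1C1 long terminal repeat beside a TC-rich simple repeat, had 8.42 KO and 8.29 WT tags with HDL + CpG, the only standard member peak with more KO than WT tags (ratio 1.02, 0.640 to 1.61). It had 11.2 KO and 17.7 WT tags with HDL (ratio 0.634) and 7.28 KO and 9.42 WT tags in unstimulated cells (ratio 0.773), and was removed in all 3 conditions. Its score with HDL, 138.71, was close to the 144.5 of the Fosb promoter, which was retained.

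The site 53.8 kb upstream of Jun was likewise listed by the standard method in all 3 conditions and removed in each. It had 3.79 KO and 7.08 WT tags with HDL + CpG (ratio 0.535), 3.03 KO and 9.49 WT tags with HDL (ratio 0.319, 0.175 to 0.566) and 6.75 KO and 8.08 WT tags in unstimulated cells (ratio 0.835). The HDL peak, centred on a simple repeat, was the second of the 2 removed peaks with a ratio of 0.5 or less. The site 163 kb upstream, on an RMER19C long terminal repeat, was listed only after KOIN correction with HDL, with 4.69 KO and 9.75 WT tags and a ratio of 0.481 (0.289 to 0.797).

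Batf and Batf3 encode short bZIP proteins that pair with JUN proteins and are best known for their roles in lymphocytes and dendritic cells. All 3 Batf peaks of the standard method were retained. The peak in intron 2 of Batf (chr12:87046148-87046982, 18.9 kb from the start site) had 4.42 KO and 12.3 WT tags with HDL + CpG, a ratio of 0.358 (0.207 to 0.597). The peak 24.0 kb from the start site (chr12:87051339-87051973), just past the end of the gene, had 1.47 KO and 9.91 WT tags with HDL + CpG, from 7 KO and 49 WT reads. Its ratio of 0.148 (0.0568 to 0.330) was the lowest among the members and ranked 66 of 3790 standard peaks of that condition. By its score of 42.56 it ranked 3299 of those 3790 peaks, and 1013 of 1232 after KOIN correction. The peak 27.0 kb upstream was listed with HDL, with 7.72 KO and 17.1 WT tags and a ratio of 0.450 (0.306 to 0.660). No Batf peak was listed in unstimulated cells and none at the promoter.

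Batf3 had 1 retained and 1 removed site. The site 12.6 kb upstream (chr1:192909376-192910073) was listed with HDL + CpG only, with 3.16 KO and 9.10 WT tags and a ratio of 0.347 (0.180 to 0.634), and was retained. Its score after KOIN correction was 40.99, rank 1143 of 1232. The site 22.5 kb downstream was listed by the standard method in all 3 conditions, with 5.68 KO and 10.9 WT tags with HDL + CpG, 7.11 KO and 9.23 WT tags with HDL, and 8.34 KO and 13.7 WT tags in unstimulated cells. Its ratios of 0.520, 0.770 and 0.607 kept it out of the KOIN-corrected lists, although its unstimulated score of 151.71 was the highest of any standard member peak. The annotation puts the centre of the unstimulated peak on a ribosomal RNA repeat, and reads that map to several places were assigned by the authors to the best position. The part of the repeat in this signal was not tested. Batf3 lies near Atf3, the gene knocked out. A KOIN-corrected unstimulated peak 103 kb from the Batf3 start site was named for Atf3. Whether closeness to the knocked-out gene bears on the Batf3 ratios was not tested.

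**Figure D3:**
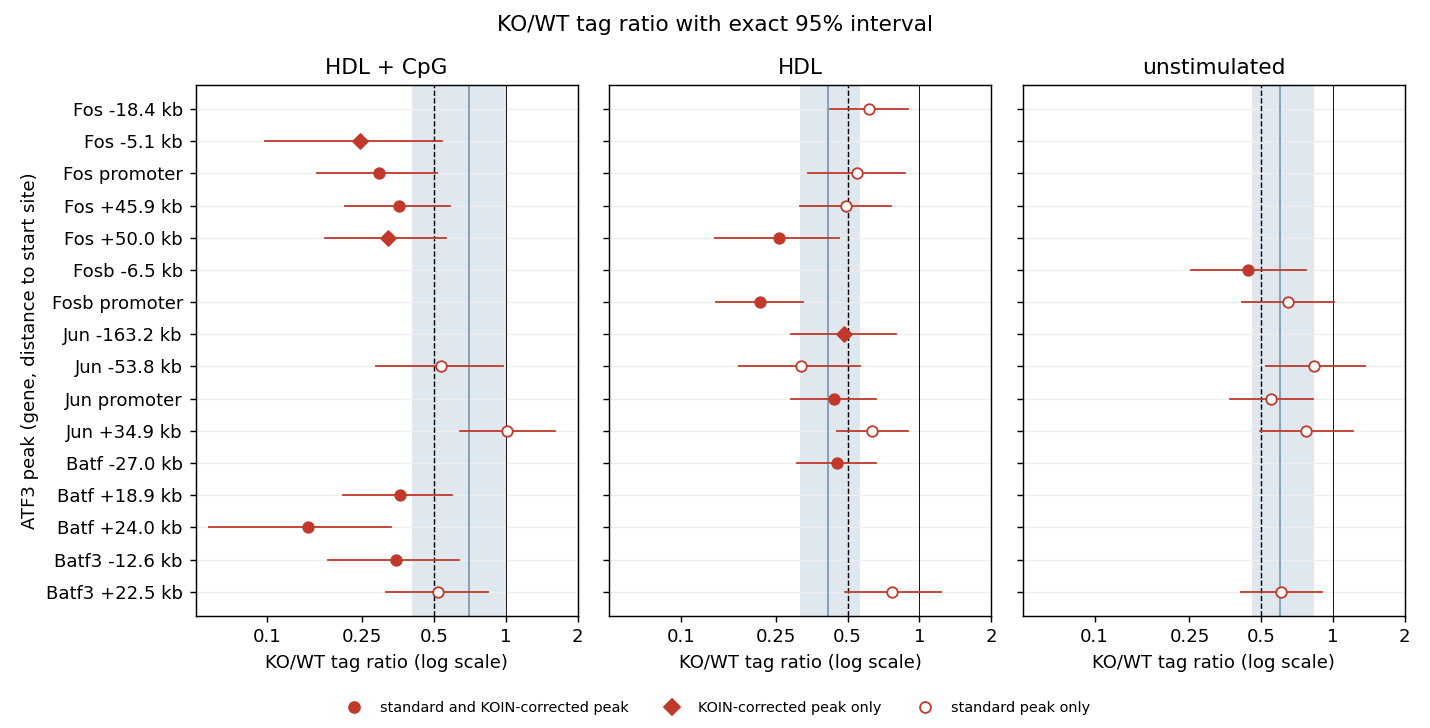
KO/WT tag ratio (x axis, log scale) with its exact 95% interval (bars) at each AP-1 family site for HDL + CpG, HDL and unstimulated macrophages, with filled circles for standard and KOIN-corrected peaks, diamonds for peaks called only after KOIN correction and open circles for removed peaks. The dashed line is 0.5, the solid line 1, and the band and its line are the interquartile range and median (0.705, 0.416 and 0.602) of all standard peaks; the Batf peak 24.0 kb from the start site lies lowest, at 0.148.

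The 10 retained standard peaks had ratios of 0.148 to 0.450, which the filter sets, and the 14 removed ones 0.319 to 1.02. Scores overlapped, at 40.99 to 144.5 for retained and 40.33 to 152 for removed peaks. A repeat lay at the centre of 0 of the 10 retained peaks, beside 33.2% of the 4620 retained peaks of any gene. It did so at 5 of the 14 removed peaks, beside 62.6% of 7268, and 3 of these 5 are the Jun site 34.9 kb from the start site in the 3 conditions. Of the 13 KOIN-corrected peaks, 2 were centred on a repeat, beside 33.0% of 4871, namely the Fos peak 50.02 kb downstream with HDL + CpG and the Jun peak 163 kb upstream with HDL.

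No member site had a KOIN-corrected peak in all 3 conditions, and 11 of the 12 sites with a KOIN-corrected peak had it in 1 condition. Over all genes 85.0% of 4169 such sites had a KOIN-corrected peak in 1 condition, 13.2% in 2 and 1.78% in 3. The promoters of Fos, Fosb and Jun were retained in 1 condition each, Fos with HDL + CpG and the others with HDL. These are 3 of the 6 standard promoter peaks of members, and the share over all promoter peaks was not computed. The paper reports a higher rate of true positives at promoters than elsewhere, with less difference for HDL alone. For 14 pairs of conditions at the 8 sites listed in several conditions, the KO/WT ratios were compared directly. The interval excluded 1 in 2 pairs, both of HDL against unstimulated cells. Among pairs of standard peaks these were 2 of 5 members, beside 26.2% of 1975 such pairs over all genes that had an interval below 1. An interval below 1 was found for 0 of 5 pairs of HDL + CpG against HDL (all pairs 3.99%). For HDL + CpG against unstimulated cells it was found for 0 of 3 (all pairs 3.68%). An interval above 1 was found for 0 of these member pairs, beside 38.6% and 31.4% of all pairs in the same order. At the Fosb promoter the HDL ratio over the unstimulated one was 0.335 (0.178 to 0.620), and 0.133 to 0.815 when widened for 14 pairs. Here the KO tags per kb were 4.59 with HDL and 7.99 in unstimulated cells (ratio 0.575, 0.359 to 0.909), and the WT tags per kb were 21.3 with HDL and 12.3 in unstimulated cells (ratio 1.73, 1.17 to 2.60). Medians of the HDL value over the unstimulated one were taken over all 2008 overlapping pairs. They were 0.796 for the KO/WT ratio, 0.870 for the KO tags per kb and 1.09 for the WT tags per kb. These medians lay on the same sides of 1 as the values at the Fosb promoter.

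At the Jun site 53.8 kb upstream the HDL ratio over the unstimulated one was 0.385 (0.176 to 0.820), and 0.123 to 1.14 when widened for 14 pairs. The peak boundaries differ between the lists, which is why tags are given per kb. The KO library was 1.74 times as deep as the WT library with HDL, 2.03 times in unstimulated cells and 0.960 times with HDL + CpG, and whether this depth gap bears on these differences was not tested.

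Fos, Jdp2 and Batf lie next to each other on chromosome 12, all on the plus strand, with Jdp2 starting 126 kb and Batf 213 kb from the Fos start site. JDP2 is a bZIP repressor that pairs with JUN and ATF proteins. No peak was named for Jdp2, and the nearest ones to its start site were the Fos site 50.02 kb downstream, 75.5 kb away, and the Batf site 27.0 kb upstream, 60.3 kb away and 19.8 kb past the end of Jdp2. Since a peak is named by the nearest start site, these distal peaks could as well be assigned to a neighbour, and the lists do not tell which gene they act on. Across these genes 8 sites were listed with stimulation and 0 in unstimulated cells, where fewer peaks were listed in all (2779 standard peaks, against 3790 with HDL + CpG and 5319 with HDL). An unstimulated standard peak overlapped 0 of the 4 standard peaks of these genes with HDL + CpG, beside 46.0% of all, and 0 of the 5 with HDL, beside 37.8% of all. The nearest unstimulated peak lay 32.0 kb past the Batf start site, was named for the neighbouring Mfsd7c and had 7.15 KO and 11.6 WT tags.

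**Figure D4:**
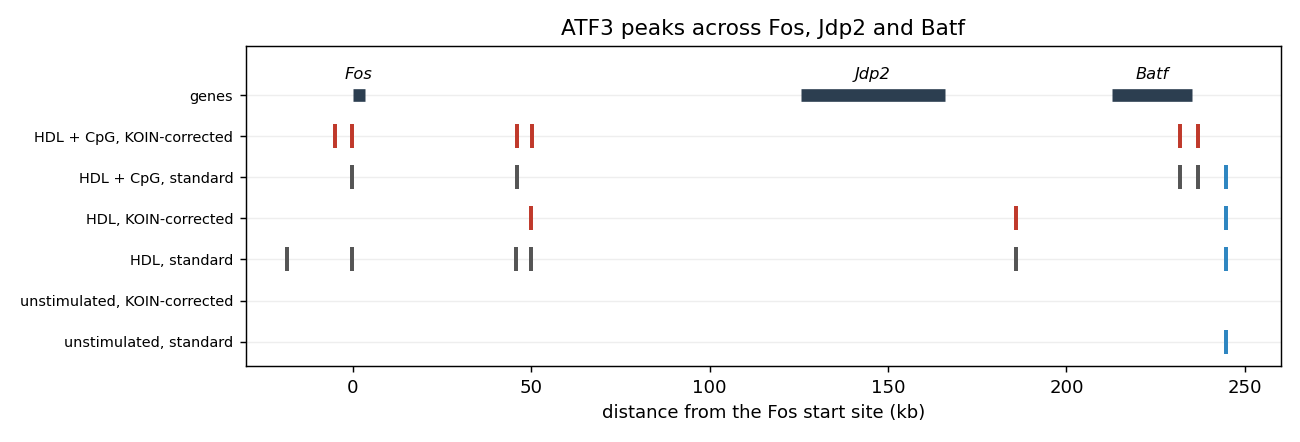
Peaks along the chromosome 12 stretch that holds Fos, Jdp2 and Batf, as distance from the Fos start site in kb (x axis), with the genes on top and, below, KOIN-corrected (red) and standard (grey) peaks for HDL + CpG, HDL and unstimulated macrophages, and peaks named for Mfsd7c in blue. The 8 sites lie around Fos and Batf, none lies inside Jdp2, and the unstimulated peak drawn is the one named for Mfsd7c.

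The genes without a peak include the FOS-related Fosl1 and Fosl2 and the JUN-related Junb and Jund. No list held a peak within 100 kb of the Fosl1 start site. A site 55.8 kb from the Fosl2 start site, named for Plb1, had 3.16 KO and 10.7 WT tags with HDL + CpG, 3.78 KO and 14.8 WT tags with HDL and 4.90 KO and 10.2 WT tags in unstimulated cells, and was retained with HDL + CpG and with HDL. Near Junb a single peak was listed with HDL, 57.0 kb from the start site, and near Jund the closest peak with HDL was 51.6 kb away. An unlisted promoter is not a measured absence, since the lists hold only regions past the threshold of the peak caller.

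The AP-1 and CRE sequences were searched in 201 bp windows at all peak centres. An AP-1 sequence in either orientation, or the CRE, was found at 1 of 8 member peaks with HDL + CpG, 1 of 10 with HDL and 0 of 6 in unstimulated cells, beside 17.1%, 17.0% and 9.57% of all standard peaks. The peak with a match was the Fos site 45.9 kb downstream, which was retained with HDL + CpG and removed with HDL. In unstimulated cells the 1 retained member had no match in the window. Among all retained peaks of these conditions the shares were 39.8%, 22.4% and 26.3%. Over the whole peak a match was found at 1 of 8, 2 of 10 and 1 of 6 members, beside 28.7%, 28.9% and 20.8% of all standard peaks. TGACTCA then also appeared at the Jun site 53.8 kb upstream with HDL, 298 bp from the centre. It appeared likewise at the Fosb site 6.49 kb upstream in unstimulated cells, 252 bp from the centre. TGACATCA was found in the window of 1 of 8 members with HDL + CpG, 3 of 10 with HDL and 0 of 6 in unstimulated cells, beside 3.32%, 2.82% and 1.94% of all peaks. TGCGTCA was found at 0 of 8, 1 of 10 and 1 of 6 members, beside 1.13%, 1.58% and 1.01%. TGACGT was found at 1 of 8, 2 of 10 and 0 of 6 members, beside 3.19%, 3.35% and 1.73%. These 3 sequences were chosen because they had been read in the promoters, so their count among the members supports nothing by itself.

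For comparison, 2 further gene groups were counted. Of 16 other bZIP genes, 4 had a standard peak with HDL + CpG, 4 with HDL and 3 without stimulation, and 3, 2 and 1 a KOIN-corrected one. They include Maf, a bZIP factor of macrophages, whose highest-scoring peak with HDL + CpG, 284 kb from the start site, had 3.37 KO and 16.8 WT tags, a ratio of 0.201 (0.110 to 0.346). They also include Atf3 itself, whose unstimulated peak 18.0 kb upstream had 4.90 KO and 10.5 WT tags. Of 23 kinases and phosphatases upstream of AP-1, 9, 9 and 4 had a standard peak and 6, 8 and 1 a KOIN-corrected one. Over all genes, 2888, 3874 and 2216 had a standard peak and 1065, 2486 and 563 a KOIN-corrected one. The total of annotated genes was not counted, so the general rate of genes with a peak is not given. Whether these groups or the members stand above that rate therefore cannot be told. Among all genes with a standard peak, 34.9%, 63.0% and 24.9% had a retained one.

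Within the group of kinases and phosphatases, retained promoter peaks were found at phosphatase genes, whose products switch off MAP kinases. They are named because the rule for other genes lists KOIN-corrected promoter peaks. The Dusp1 promoter was retained with HDL + CpG, with 3.16 KO and 9.70 WT tags, and with HDL, with 2.72 KO and 9.49 WT tags. Its ratios were 0.326 (0.169 to 0.591) and 0.287 (0.153 to 0.519). The Dusp4 promoter was retained with HDL, with 5.0 KO and 11.3 WT tags.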

How the data were processed

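Reads of 3 biological replicates per group were pooled and aligned by the authors to mm9, and peaks were called and then annotated. For this, the processing notes of the submitters list CASAVA 1.8, Bowtie 0.12.8, MACS 1.4.2 and HOMER 4.3. Each deposited list gives a MACS score per peak and, as signal, WT and KO tags that the authors scaled to 10000000 per library. Column headers gave the library totals, and every tag value lay within 0.005 tags of whole reads, which were recovered. A further column with the authors' own tag fold and the list of barcodes were not used.

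KO/WT ratios have exact conditional 95% intervals, shares have Wilson intervals, and no p-value was computed because each group is 1 library. The interval was tested on simulated reads that varied by counting error only. Selection on high WT signal and variation between cultures were not simulated, so the test does not cover them. Overlap needed 1 bp. Every member peak was accounted for, and other genes were named by the highest-scoring KOIN-corrected peak per condition or a promoter peak. The 2 other lists were bZIP genes and kinases or phosphatases upstream of AP-1. Members and lists were chosen with earlier results of these data known. HOMER distances lay within 51 bp of annotated start sites for 37 of 37 peaks. Alternatives were score minimums of 60 and 100, 50% overlap, merging within 1000 bp, limits of 10 and 100 kb, no repeats, a ratio of 0.5 or less as the call, a pseudocount of 1 tag, KOIN boundaries, and windows of 50 bp or the whole peak. The comparison of ratios between conditions and the sequences TGACATCA, TGCGTCA and TGACGT were added after seeing the data. Overlapping standard peaks of all genes were compared between conditions in the same way. The intervals, but not the medians, left out 31, 32 and 33 pairs with over 5000 reads or a count of 0. Python 3.11.15, numpy 2.4.6, pandas 2.3.3, scipy 1.17.1 and matplotlib 3.10.9 were used.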

Additional observations from a re-analysis of the deposited data

Results flagged for a closer look

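The KO/WT ratio at the Fosb promoter differed between conditions: the HDL ratio of 0.216 over the unstimulated ratio of 0.647 was 0.335, with an interval of 0.178 to 0.620 that excludes 1. The KO/WT ratio at the Jun site 53.8 kb upstream differed likewise, with an HDL ratio of 0.319 over an unstimulated ratio of 0.835, which gave 0.385 (0.176 to 0.820). Both come from HDL against unstimulated cells, where 26.2% of the 1975 pairs over all genes had an interval below 1. The second no longer excluded 1 when the interval was widened for the 14 pairs compared (0.123 to 1.14). Each library is 1 pool, so the intervals cover counting error and not differences between cultures.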

How the results depend on the processing

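Of 82 alternative values, 77 lay within the interval of the main value, which is wide for 6 to 10 peaks, 5 moved outside it and 0 reversed. For the median ratio this interval spans all members with HDL + CpG (0.148 to 1.02) and in unstimulated cells (0.442 to 0.835). A median over some of those peaks could not leave it, so its place inside was fixed in advance. Within its own interval, the retained share was 33.3% for HDL + CpG with a score of at least 60, 66.7% for HDL within 10 kb of a start site and 33.3% for unstimulated cells within 10 kb, from 3 peaks each. With a score of at least 100 the retained share of HDL + CpG members was 0%, from 1 peak, and within 10 kb of a start site 100%, from 1 peak. In unstimulated cells the retained share was 0% with a score of at least 60, from 2 peaks, and 0% with a score of at least 100, from 1 peak. With TGACATCA, TGCGTCA and TGACGT, chosen after seeing the sequences, members with a match made up 37.5% for HDL + CpG (all peaks 22.2%), 70% for HDL (all peaks 22.3%) and 16.7% for unstimulated cells (all peaks 13.2%). A pseudocount of 1 tag moved 2 of the 24 standard peaks across the ratio of 0.5, the Fos site 45.9 kb downstream with HDL (0.528) and the Fosb site 6.49 kb upstream (0.503). The KOIN boundaries gave identical tags at all 10 retained peaks, so these ratios could not move. The limit of 100 kb and merging within 1000 bp left the number of standard peaks and the retained shares unchanged in every condition. All of these are among the 77 values, which therefore overstate how far the results were put to the test. No paired analysis was possible because each group is 1 pooled library, and for the same reason no replicate could be left out. With 7 to 88 reads per library behind a retained peak, counting error is wide.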
